A study of Mus musculus with 12 samples.

Results

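Blastocysts kept under p38-MAPK inhibition were followed between E3.5 + 4 h and, 6 h later, E3.5 + 10 h in 4 of the 12 mRNA-Seq libraries of the series. The genes described are the 10949 of 34245 in the table that had at least 1 RPKM (reads scaled to transcript length and library depth) in at least 2 of these 4 libraries. The mouse embryos came from matings between F1 hybrids (C57Bl6 x CBA/W) and had been in KSOM with amino acids since E1.5. At E3.5 they were moved to 20 µM SB220025, an inhibitor of p38-MAPK (p38-MAPKi), or to its solvent DMSO (control). Each library was made from a pool of 30 whole embryos, with 2 libraries for each treatment and time, so all cell types of the blastocyst are mixed in it. The comparison asks which developmental mRNAs still move late in the culture while p38-MAPK is inhibited, and the control libraries of the same hours give the background.

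During these hours the mouse blastocyst expands its cavity with fluid pumped across the trophectoderm (TE), an outer epithelium sealed by tight junctions and desmosomes. The inner cell mass separates meanwhile into the epiblast, which keeps pluripotency genes, and the primitive endoderm (PrE), which expresses GATA6, then SOX17 and then GATA4, and lays down basement membrane. The p38-MAPKs are stress-activated kinases, and inhibiting them in this period is known to impair PrE differentiation.

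The 4 libraries held 21618040 to 24457312 reads, and the 4 control libraries 17097676 to 23287564. The median SD between replicates on the log2 scale was 0.198 for p38-MAPKi at 4 h and 0.0840 at 10 h. Libraries differed in a trend on transcript length. Relative to the mean of all libraries, the fifth of genes with the longest transcripts minus the fifth with the shortest was -0.523 on the log2 scale in replicate 2 of p38-MAPKi at 4 h and 0.0605 in replicate 1. The 10 h libraries were at 0.307 and 0.214. The median log2 fold change from 4 h to 10 h ran from -0.18 for the shortest transcripts to 0.31 for the longest with p38-MAPKi, and from 0.056 to 0.16 in the control. The part of this trend in each result was not tested, and values with the trend removed, or without replicate 2 of 4 h, are given beside most gene groups. In this measure replicate 2 of 4 h was closer to the 7 h libraries of p38-MAPKi, at -0.717 and -0.523, than to its own replicate. Why it was so was not tested, and every change from 4 h to 10 h with p38-MAPKi rests on it as 1 of only 2 libraries of 4 h. Krt18, Cdx2, Gata6, Nanog and Pou5f1, which mark the 3 blastocyst lineages, each exceeded 80 RPKM in all 4 libraries. Of 20 markers of cumulus and oviduct cells, 8 to 10 had a read in these libraries, and their summed level was 4.23 and 2.90 RPKM at 4 h and 2.89 and 3.34 RPKM at 10 h.

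**Figure D1:**
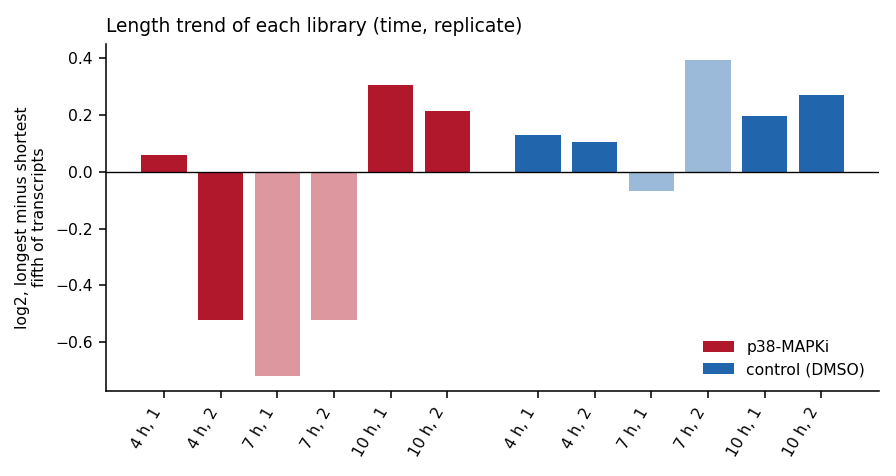
Each bar is 1 library and shows the median log2 deviation from the mean of the 12 libraries in the fifth of genes with the longest transcripts minus that in the fifth with the shortest. Replicate 2 of p38-MAPKi at 4 h (-0.523) lies near both p38-MAPKi libraries of 7 h (-0.717 and -0.523), and replicate 1 (0.0605) does not.

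No gene passed an adjusted p of 0.05 between 10 h and 4 h of p38-MAPKi in limma (0.00% of 10949, smallest adjusted p 0.0679). At an adjusted p of 0.1 there were 44 genes (0.402%), of which 26 were higher and 18 lower at 10 h. At an unadjusted p under 0.05, called nominal below, 1331 genes (12.2%) were higher and 1100 (10.0%) lower. Both 10 h libraries lay above both 4 h libraries for 3875 genes (35.4%) and below them for 2803 (25.6%). In the control, 51 of 10825 genes (0.471%) passed an adjusted p of 0.05, of which 47 rose and 4 fell, and 1424 (13.2%) were nominally higher and 222 (2.05%) nominally lower. At least 22 of those 47 lay under 1 RPKM in both 4 h control libraries and passed the filter only through 10 h, where they were high. The difference between the changes of the 2 arms passed for no gene of 11141 (0.00%, smallest adjusted p 0.395). It was nominally more positive with p38-MAPKi for 222 genes (1.99%) and more negative for 886 (7.95%). The median log2 fold change over tested genes was 0.07 with p38-MAPKi and 0.14 in the control. The balance of nominal calls depended on the scaling. With p38-MAPKi the share of higher genes among the nominal ones was 54.8%, and 39.5% when each library was centred on its median (median log2 fold change -0.03), 47.4% after quantile normalization and 42.3% with the length trend removed. In the control it was 86.5%, 43.5%, 48.8% and 39.0%. For the difference between the arms the share that was more positive was 20.0%, 36.4%, 45.5% and 46.8%. Genes below are therefore described by their values and by whether the libraries of the 2 times overlap. All levels are shares of a library, and in pools of whole embryos fewer cells of a type and less RNA per cell cannot be told apart.

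Genes of the TE were mostly higher at 10 h than at 4 h in inhibited embryos. Of 28 tested, 12 were nominally higher and 1 lower, and 23 were higher without overlap. Over all tested genes 12.2% were nominally higher and 10.0% lower, and 35.4% were higher and 25.6% lower without overlap. In the control 13.2% were nominally higher and 2.05% lower. The counts of this and the following lists stand beside these shares. The median log2 fold change of the TE list was 0.31 (0.37 with the length trend removed). In the control it was 0.28 (0.12 with the trend removed), with 13 nominally higher and none lower. Keratin 19, an intermediate filament protein of simple epithelia, stood at 0.820 and 0.723 RPKM at 4 h and at 2.77 and 4.92 RPKM at 10 h, on 37, 29, 113 and 223 reads, a log2 fold change of 2.26 ± 0.35 (SE, adjusted p = 0.096). In the control Krt19 went from 0.757 and 1.18 to 2.27 and 2.36 RPKM. In both arms the 10 h levels lay above the 4 h levels. With p38-MAPKi both 4 h values lay under 1 RPKM, so Krt19 passed the filter only through its 10 h libraries. Gata2, a transcription factor of trophoblast, measured 7.73 and 6.49 RPKM and then 13.2 and 12.1 RPKM (0.83 ± 0.16, adjusted p = 0.105). Gata3, which works beside Cdx2 in specifying TE, went from 62.5 and 70.7 to 94.7 and 89.4 RPKM (0.47 ± 0.13, adjusted p = 0.145). Neither time overlapped the other for these genes, and none of the 3 differed nominally from its control change at the deposited scaling. With the length trend removed the difference was 1.2 for Krt19 (unadjusted p = 0.021 in limma). Over the list the change was nominally more positive than in the control for 1 gene, and for 7 with the length trend removed. Those counts stand beside 1.99% and 4.89% of all genes, and 1 gene was more negative in both settings.

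Cdx2, Krt8, Krt18, Krt7, Eomes and Tfap2c changed less than Gata2 and Gata3 at the deposited scaling. Cdx2, which specifies TE, measured 151 and 158 RPKM at 4 h and 177 and 176 RPKM at 10 h (0.19 ± 0.12), under the 196 to 219 RPKM of the 4 control libraries. Its difference between the arms was 0.20 ± 0.16, and 0.40 with the length trend removed (unadjusted p = 0.0053 in limma). Krt8 went from 571 and 572 to 639 and 754 RPKM (0.28 ± 0.15), and its partner Krt18 from 1048 and 1079 to 1184 and 1361 RPKM (0.26 ± 0.15). With the length trend removed the log2 fold changes were 0.38 for Krt8 and 0.39 for Krt18, beside 0.40 for Gata3. The control log2 fold changes of Krt8 and Krt18 were 0.49 ± 0.10 and 0.50 ± 0.10, and the differences between the arms were -0.21 ± 0.19 and -0.24 ± 0.19. Log2 fold changes with p38-MAPKi were 0.16 ± 0.15 for Krt7, 0.14 ± 0.16 for Eomes and -0.05 ± 0.12 for Tfap2c.

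Hand1, a helix-loop-helix factor of trophoblast giant cells, went opposite to most of the TE list. It was at 3.33 and 4.77 RPKM after 4 h of p38-MAPKi and at 0.910 and 0.901 RPKM after 10 h, on 162, 206, 40 and 44 reads (-2.14 ± 0.29, adjusted p = 0.0897). Both 10 h values lay under 1 RPKM, so with p38-MAPKi Hand1 passed the filter only through its 4 h libraries. The control libraries of 4 h and 10 h lay at 1.26 to 1.67 RPKM, under the inhibited embryos at 4 h and above them at 10 h. At 7 h the inhibited libraries held 3.34 and 3.45 RPKM and the control libraries 0.925 and 3.60 RPKM, so the control replicates of that hour spanned most of this range. The difference between the arms was -2.22 ± 0.39 (adjusted p = 0.395).

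**Figure D2:**
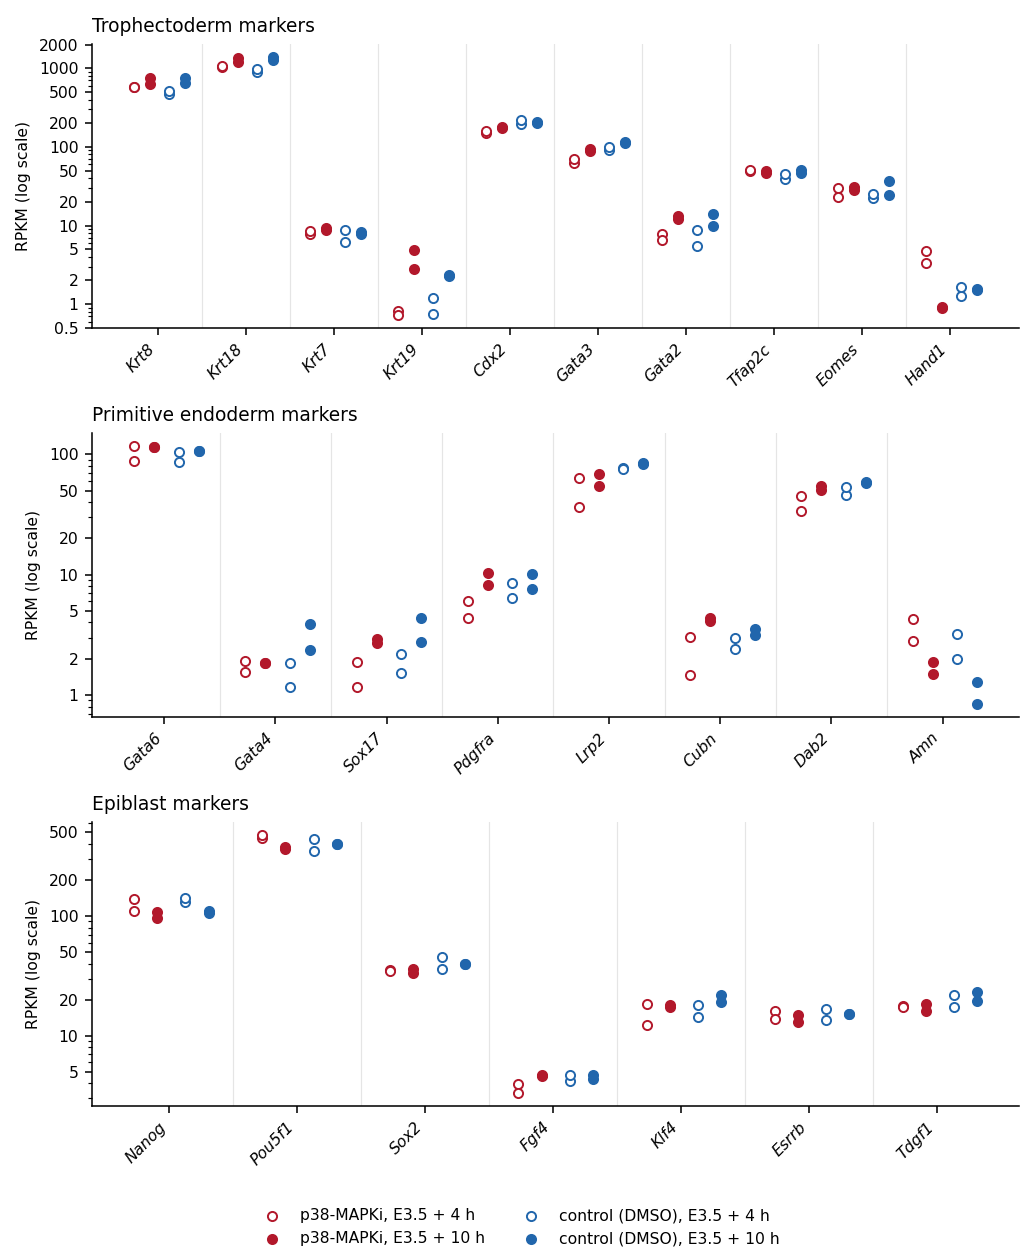
RPKM on a log axis of the lineage markers, 1 point per library, for p38-MAPKi and control at both times. Krt8, Krt18, Krt7, Krt19, Cdx2, Gata2, Gata3, Sox17, Pdgfra, Cubn, Dab2 and Fgf4 were higher at 10 h of p38-MAPKi without overlap. Hand1, Amn, Tfap2c, Nanog and Pou5f1 were lower without overlap. Both 10 h values of Gata4 (1.84 and 1.85) fell between its 4 h values.

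Genes of the epithelial seal followed the TE list. Of 24 genes of tight and adherens junctions and desmosomes, 9 were nominally higher and none lower, with a median of 0.40 that was 0.18 without replicate 2 of 4 h. In the control 17 were nominally higher (median 0.29). The members described in this and the following groups, beyond the fixed lineage markers, were chosen after their values were seen, most of them as those with the smallest p of their list. Dsc2 and Dsg2, desmosomal cadherins, went from 7.15 and 4.55 to 12.5 and 12.2 RPKM (1.12 ± 0.23, adjusted p = 0.114) and from 13.01 and 8.13 to 18.5 and 18.8 RPKM (0.86 ± 0.22, adjusted p = 0.14). Marveld2, which encodes tricellulin at the corners where 3 cells meet, went from 5.09 and 5.35 to 7.57 and 7.87 RPKM, and Cgn (cingulin, a plaque protein of tight junctions) from 15.5 and 11.6 to 20.0 and 19.6 RPKM. All 4 were higher without overlap, and none differed nominally from its control change.

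Of 19 genes of apical polarity and of linkers between membrane and actin, 6 were nominally higher and none lower. The median was 0.33, 0.15 with the length trend removed and 0.13 without replicate 2 of 4 h (control 0.23, 0.07 with the trend removed). The membrane linker moesin (Msn) was at 31.1 and 17.9 RPKM and then at 52.0 and 49.8 RPKM (1.11 ± 0.25, adjusted p = 0.125), and it rose in the control from 29.8 and 37.96 to 52.4 and 58.0 RPKM (0.71, adjusted p = 0.0493). Among 11 pumps and channels that fill the cavity 3 were nominally higher, and the median of 0.11 was 0.01 with the length trend removed and 0.00 without replicate 2 of 4 h. Atp12a, a proton and potassium pump, was the foremost, from 6.11 and 4.29 to 13.8 and 11.5 RPKM with p38-MAPKi (1.30 ± 0.21), and it rose in the control from 7.73 and 7.35 to 12.2 and 12.4 RPKM (0.70, adjusted p = 0.0493). The sodium pump subunit gene Atp1b1 had a log2 fold change of -0.03 ± 0.12.

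Hippo signalling keeps the coactivator YAP out of the nuclei of inner cells, and in TE nuclei YAP joins TEAD factors to drive genes such as Cyr61, Ctgf and Amotl2. Of 23 members of this pathway, 8 were nominally higher at 10 h of p38-MAPKi and none lower, and 17 were higher without overlap (median 0.32, 0.20 with the length trend removed and 0.21 without replicate 2 of 4 h). In the control 2 were nominally higher (median 0.14, -0.02 with the trend removed). The change was nominally more positive than in the control for 6, beside 1.99% of all genes, and for 6 with the length trend removed, beside 4.89% of all genes.

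Amotl2, which encodes an adaptor that holds YAP at the membrane, was at 10.9 and 6.21 RPKM at 4 h and at 23.1 and 21.5 RPKM at 10 h (1.43 ± 0.26, adjusted p = 0.105). The control went from 18.97 and 19.6 to 27.1 and 30.9 RPKM, so inhibited embryos lay under the control at both times. Tead1, a DNA-binding partner of YAP, measured 5.09 and 3.99 RPKM and then 9.16 and 8.32 RPKM, against 6.97 to 8.97 RPKM in the 4 control libraries. The TEAD cofactor gene Vgll3 went from 3.77 and 2.91 to 8.23 and 6.65 RPKM. Cyr61, a secreted matrix protein gene, went from 5.17 and 5.18 RPKM, below all 4 control libraries (6.92 to 8.30 RPKM), to 10.4 and 9.66 RPKM, above all of them. The log2 differences between the arms were 0.85 ± 0.31 for Amotl2, 0.81 ± 0.24 for Tead1, 0.68 ± 0.26 for Vgll3 and 0.74 ± 0.19 for Cyr61, all at an adjusted p of 0.424 or more.

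TEAD factors bind the core GGAATG. In the 250 bases before gene starts in RefSeq (GRCm38.p6) this hexamer lay on either strand in 12.6% of 32851 promoters and in 9 of the 18 Hippo pathway promoters found there. Members with it had a median log2 fold change of 0.31 and members without it of 0.37, with 3 of 9 nominally higher in both groups. The list was written from known genes of this pathway, so its share of the hexamer is no result of these data. The promoters of Amotl2 and Vgll3 are shown because both genes differed nominally between the arms, with the hexamer in capitals on whichever strand it lies.
Amotl2, chr9:102717554-102717803, + strand: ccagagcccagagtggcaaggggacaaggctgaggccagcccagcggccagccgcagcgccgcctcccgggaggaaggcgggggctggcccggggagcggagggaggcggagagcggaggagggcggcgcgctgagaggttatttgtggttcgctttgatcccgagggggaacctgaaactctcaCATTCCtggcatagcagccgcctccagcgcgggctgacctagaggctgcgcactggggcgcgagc
Vgll3, chr16:65814939-65815188, + strand: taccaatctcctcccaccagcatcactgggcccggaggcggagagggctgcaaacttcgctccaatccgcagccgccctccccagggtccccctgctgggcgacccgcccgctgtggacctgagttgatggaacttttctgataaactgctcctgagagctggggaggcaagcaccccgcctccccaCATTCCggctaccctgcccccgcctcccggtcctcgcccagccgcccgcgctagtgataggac

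PrE genes were higher as a list, by a margin that depended on 1 library. Of 20 tested, 9 were nominally higher and 2 lower. The median of 0.46 became 0.22 with the length trend removed and 0.20 without replicate 2 of 4 h. In the control it was 0.23, and 0.07 with the trend removed, with 7 nominally higher and 2 lower. Sox17, an endoderm factor, was at 1.87 and 1.16 RPKM at 4 h and at 2.69 and 2.90 RPKM at 10 h (0.92 ± 0.30, adjusted p = 0.171). Control embryos went from 1.53 and 2.19 to 4.38 and 2.77 RPKM (0.93 ± 0.27), a difference between the arms of -0.01 ± 0.44. Pdgfra, a growth factor receptor retained by PrE cells, went from 6.09 and 4.36 to 10.3 and 8.15 RPKM (0.83 ± 0.22, adjusted p = 0.141). Both genes were higher at 10 h without overlap.

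Gata4, a PrE factor that appears after SOX17, had overlapping levels at the 2 times under inhibition. It measured 1.92 and 1.54 RPKM at 4 h and 1.84 and 1.85 RPKM at 10 h, on 182, 130, 158 and 177 reads (0.10 ± 0.27). The control went from 1.15 and 1.85 to 3.86 and 2.34 RPKM (1.04 ± 0.31), and the difference between the arms was -0.94 ± 0.45 at an unadjusted p of 0.0612. Gata6 overlapped, with 118 and 89.0 RPKM at 4 h and 115 and 115 RPKM at 10 h (0.17 ± 0.16). Among genes for uptake across the endoderm, the receptor gene Cubn went from 3.05 and 1.45 to 4.34 and 4.14 RPKM (1.01 ± 0.35) and the adaptor gene Dab2 went from 45.5 and 33.9 to 54.6 and 51.0 RPKM (0.43 ± 0.17), both without overlap. Without replicate 2 of 4 h their log2 fold changes were 0.47 and 0.21. Lrp2, another uptake receptor gene, overlapped (64.0 and 36.4, then 68.5 and 54.5 RPKM). Amn, which carries cubilin to the cell surface, was lower at 10 h in both arms, from 2.81 and 4.24 to 1.48 and 1.86 RPKM with p38-MAPKi (-1.06 ± 0.29) and from 2.00 and 3.21 to 1.28 and 0.839 RPKM in the control (-1.29 ± 0.32). Sox7 did not reach the 1 RPKM filter and was not tested. Over 19 genes of endocytic uptake 6 were nominally higher and 2 lower, and the median of 0.32 became 0.01 with the length trend removed and 0.05 without replicate 2 of 4 h.

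Cited1, a transcriptional coactivator in the PrE list, was lower at 10 h in both arms. It stood at 31.1 and 46.8 RPKM and then at 12.8 and 13.4 RPKM with p38-MAPKi (-1.54 ± 0.20, adjusted p = 0.0897), and it fell in the control from 29.7 and 31.5 to 17.4 and 16.8 RPKM (-0.84 ± 0.12, adjusted p = 0.0104).

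The basement membrane list had a median of 0.51 over 23 genes, 8 of them nominally higher and 1 lower. The median was 0.33 with the length trend removed, 0.11 without replicate 2 of 4 h and 0.92 without replicate 1. In the control it was 0.28, and 0.11 with the trend removed. The laminin gene Lamb1 was at 17.1 and 13.1 RPKM at 4 h and at 32.6 and 30.6 RPKM at 10 h (1.08 ± 0.16, adjusted p = 0.096), beside 19.2 and 24.6 and then 29.9 and 31.4 RPKM in the control. Sparc, a matrix glycoprotein gene, went from 13.9 and 9.50 to 18.9 and 21.5 RPKM (0.81 ± 0.20), and Plod2, which encodes a collagen lysyl hydroxylase, from 10.9 and 8.41 to 17.4 and 13.6 RPKM. P4ha1, for a collagen prolyl hydroxylase, was the member that was nominally lower (16.8 and 16.03, then 12.8 and 11.1 RPKM). In these 4 genes the 2 times did not overlap.

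Genes of the epiblast had no common direction, with 4 of 26 nominally higher, 3 lower and a median of 0.10 (control 0.08). Both counts were near the 12.2% and 10.0% of all genes. Sox2 lay at 33.3 to 36.3 RPKM in the 4 libraries (0.00 ± 0.12). Nanog went from 109 and 139 to 96.8 and 107 RPKM (-0.27 ± 0.15) and in the control from 131 and 141 to 111 and 107 RPKM (-0.32 ± 0.10). Pou5f1, which encodes OCT4, was at 446 and 480.1 RPKM and then at 362 and 379.5 RPKM (-0.32 ± 0.13, adjusted p = 0.218). Nanog and Pou5f1 were lower without overlap. The other markers had log2 fold changes of 0.36 ± 0.19 for Fgf4, the epiblast signal to PrE, 0.24 ± 0.21 for Klf4, -0.09 ± 0.15 for Esrrb and -0.03 ± 0.14 for Tdgf1.

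DNA methylation is restored around implantation, and 5 of 15 genes of this machinery were nominally higher and 2 lower (median 0.32, 0.00 with the length trend removed). The de novo methyltransferase gene Dnmt3b went from 22.6 and 16.7 to 32.8 and 32.3 RPKM (0.74 ± 0.17) and its cofactor gene Dnmt3l from 22.2 and 23.5 to 33.7 and 31.4 RPKM. Both were higher at 10 h without overlap.

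For FGF receptors and feedback genes of ERK signalling, 3 of 19 were nominally higher and 1 lower, near the 12.2% and 10.0% of all genes. The median of 0.21 became -0.03 with the length trend removed and -0.06 without replicate 2 of 4 h. Fgfr2, a receptor of TE and PrE, went from 9.93 and 7.80 to 13.9 and 13.8 RPKM and the ERK inhibitor gene Spry2 from 33.8 and 32.8 to 42.7 and 43.3 RPKM. In the p38-MAPK cascade itself 4 of 21 genes were nominally higher and 1 lower, beside the same shares of all genes. The control had 9 higher, beside 13.2% of all genes there. Dusp1, for a phosphatase that switches p38-MAPK off, went from 3.41 and 2.83 to 6.47 and 5.12 RPKM (0.89 ± 0.21). Of the genes for the activating kinases, Map2k3 was lower (35.4 and 35.6, then 25.9 and 24.6 RPKM) and Map2k6 higher (5.34 and 4.61, then 7.58 and 8.13 RPKM), both without overlap.

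**Figure D3:**
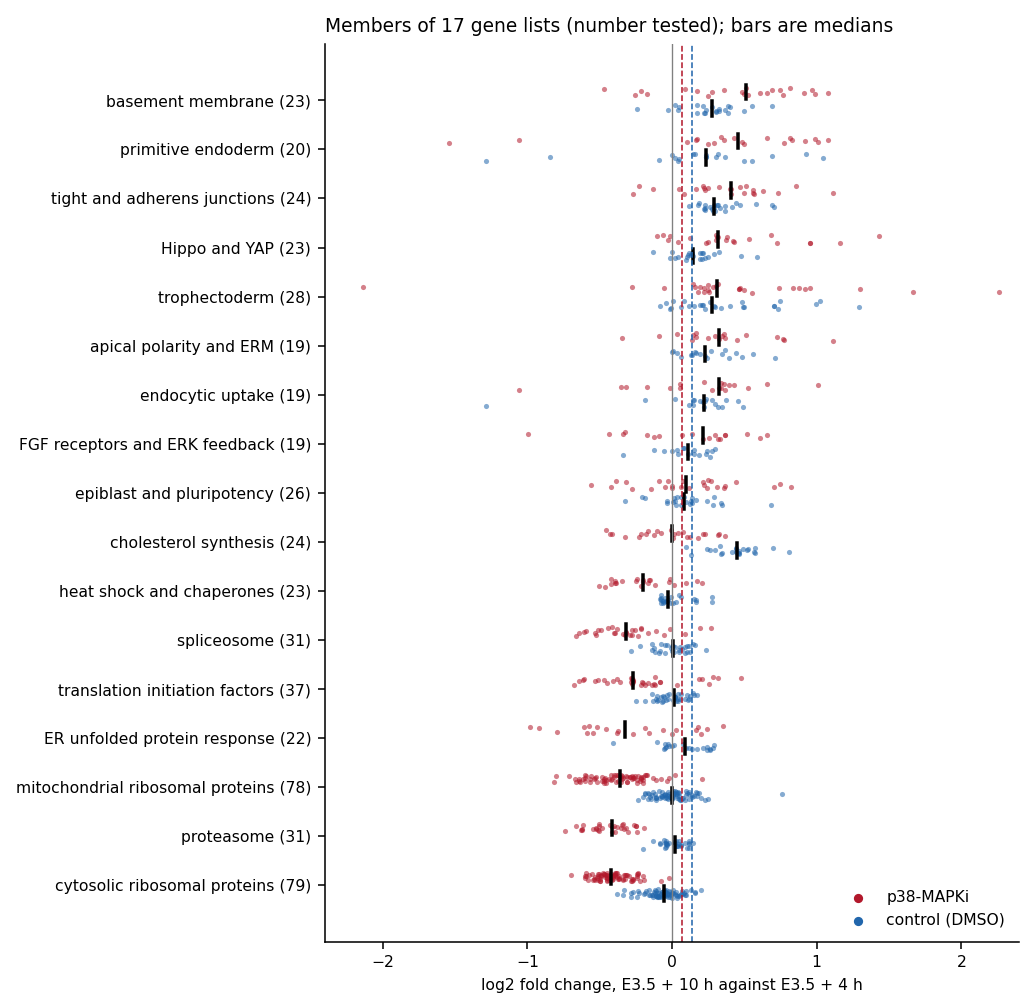
Log2 fold change of RPKM at 10 h against 4 h for the tested members of the plotted gene lists, 1 point per gene, in p38-MAPKi and control, with list medians marked. Developmental and epithelial lists have medians to the right of 0 in both arms, but so have all tested genes (dashed, 0.07 with p38-MAPKi and 0.14 in the control). The control medians of epiblast (0.08) and FGF genes (0.11) lie below that of all genes. Proteasome (-0.41) and cytosolic ribosomal protein genes (-0.42) lie to the left of 0 with p38-MAPKi and near it in the control (0.02 and -0.06).

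Genes for making and degrading proteins were lower at 10 h of p38-MAPKi. Of 31 proteasome subunit genes 24 were nominally lower and none higher, and 30 were lower without overlap. Their median was -0.41 (-0.44 with the length trend removed) and lay between -0.56 and -0.31 when 1 of the 4 libraries was left out. In the control none was nominal (median 0.02, -0.13 with the trend removed). The change was nominally more negative than in the control for 22, beside 7.95% of all genes, and for 12 with the length trend removed, where 5.57% of all genes were more negative. Among genes that reached 10 RPKM these backgrounds were higher. There 15.4% were nominally lower with p38-MAPKi and 12.5% nominally more negative than in the control. Psma5, a subunit of the core, measured 143 and 194 RPKM at 4 h and 99.0 and 100.5 RPKM at 10 h (-0.74 ± 0.17, adjusted p = 0.127), while the control lay at 142 to 159 RPKM. Psmc2, an ATPase of the cap, went from 92.8 and 111 to 64.2 and 67.9 RPKM (-0.62 ± 0.14). At 7 h against 4 h of p38-MAPKi the list median was 0.15.

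Ribosomal protein genes moved the same way, with values that leaned more on 1 library. Of 79 of the cytosolic ribosome 41 were nominally lower and none higher, and the median of -0.42 was -0.21 without replicate 2 of 4 h and -0.62 without replicate 1. The control had 7 lower and a median of -0.06. The difference was nominally more negative for 14, beside 7.95% of all genes and 12.5% of those that reached 10 RPKM. With the length trend removed it was so for 2, below the 5.57% of all genes. Rpl13a was at 702 and 939.9 RPKM and then at 484 and 518 RPKM (-0.70 ± 0.18). For mitochondrial ribosomal proteins 37 of 78 genes were nominally lower and none higher (median -0.36, -0.22 without replicate 2 of 4 h, control 0.00), Mrpl2 among them (136 and 164, then 93.0 and 95.6 RPKM). The spliceosome list had 11 of 31 lower and the translation initiation factors 11 of 37, none higher in either, with medians of -0.32 and -0.27 that were -0.12 and -0.15 without replicate 2 of 4 h. Respiratory complex I had 6 of 37 lower and complexes II to V 2 of 39, beside 10.0% of all genes. Their medians without replicate 2 of 4 h were -0.01 and -0.04. At 7 h against 4 h of p38-MAPKi their medians were 0.48 and 0.36. In the same comparison the medians of cytosolic and mitochondrial ribosomal proteins, spliceosome and initiation factors were 0.38, 0.15, 0.10 and -0.01. Over all tested genes the median was -0.10.

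Cells meet misfolded protein in the endoplasmic reticulum (ER) with the unfolded protein response, in which ATF6 and XBP1 turn on chaperone genes. Of 22 genes of this response 10 were nominally lower at 10 h of p38-MAPKi and none higher. The median was -0.32, and -0.35 with the length trend removed (control 0.09, -0.06 with the trend removed). The change was nominally more negative than in the control for 9, and for 9 with the length trend removed, beside 7.95% and 5.57% of all genes. Hspa5, for the ER chaperone BiP, was at 221 and 252 RPKM at 4 h and at 126 and 147 RPKM at 10 h (-0.79 ± 0.14, adjusted p = 0.105), and the control held 216 to 258 RPKM. Manf, a secreted stress protein gene, went from 28.1 and 39.0 to 15.7 and 18.0 RPKM (-0.98 ± 0.18, adjusted p = 0.105). Creld2, an ER stress-induced gene, went from 72.7 and 105 to 43.1 and 49.3 RPKM and the lectin chaperone gene Calr from 444 and 482 to 295 and 322 RPKM. In these 4 genes the 10 h libraries of p38-MAPKi lay under all other libraries of 4 h and 10 h. Canx, for another lectin chaperone, had a log2 fold change of 0.18 ± 0.13.

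ATF6 and XBP1 act on the ER stress response element, in which CCAAT is followed after 9 bases by CCACG. In the 250 bases before the start it lay on either strand in 37 of 32851 promoters (0.113%) and in 8 of the 19 promoters of the list (42.1%). Of these 8, 5 were nominally lower (median -0.56), and of the 11 without it 4 were (median -0.27). The list was written from known genes of this response, so its share of the element is no result of these data. Among tested genes with a promoter entry 17 of 8325 (0.204%) had the element, and those outside the list were not compared. The promoters of Hspa5 and Creld2, which were lower, and of Canx, which was not, are shown with both parts of the element in capitals on whichever strand they lie.
Hspa5, chr2:34771840-34772089, + strand: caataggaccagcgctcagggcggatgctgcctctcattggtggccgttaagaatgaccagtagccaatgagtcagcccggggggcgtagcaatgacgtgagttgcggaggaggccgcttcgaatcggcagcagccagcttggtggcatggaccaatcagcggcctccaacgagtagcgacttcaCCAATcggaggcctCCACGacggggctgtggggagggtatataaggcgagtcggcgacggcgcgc
Creld2, chr15:88819396-88819645, + strand: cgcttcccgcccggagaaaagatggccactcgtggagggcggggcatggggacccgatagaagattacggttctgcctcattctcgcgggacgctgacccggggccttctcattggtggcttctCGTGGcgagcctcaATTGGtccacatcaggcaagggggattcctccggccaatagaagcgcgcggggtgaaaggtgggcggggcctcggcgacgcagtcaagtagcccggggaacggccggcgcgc
Canx, chr11:50325674-50325923, - strand: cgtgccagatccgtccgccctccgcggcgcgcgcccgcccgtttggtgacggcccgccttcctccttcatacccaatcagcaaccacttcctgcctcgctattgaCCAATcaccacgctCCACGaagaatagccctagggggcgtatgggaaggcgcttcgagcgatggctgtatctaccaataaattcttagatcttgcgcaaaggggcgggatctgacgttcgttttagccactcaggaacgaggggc

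**Figure D4:**
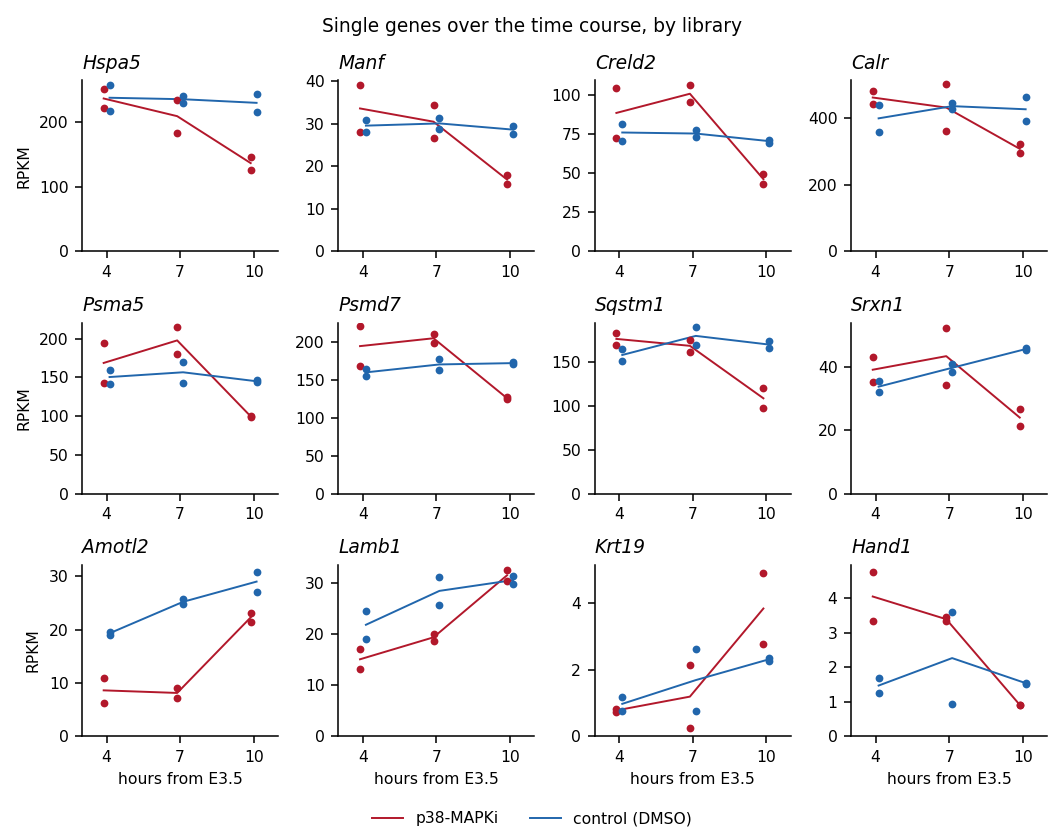
RPKM of single genes against hours from E3.5, 1 point per library and lines through the means, for p38-MAPKi and control. Hspa5 with p38-MAPKi measured 184 and 235 RPKM at 7 h and 126 and 147 RPKM at 10 h.

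Antioxidant, autophagy and integrated stress response genes leaned lower as well. Targets of p53 did not, with 4 of 22 nominally higher and 0 lower. Of 26 antioxidant genes 6 were nominally lower and none higher (median -0.19), while the control had 7 higher (median 0.19). Srxn1, for sulfiredoxin, went from 43.1 and 35.2 to 21.3 and 26.8 RPKM with p38-MAPKi and from 32.1 and 35.5 to 45.9 and 45.5 RPKM in the control, a difference of -1.14 ± 0.21 (adjusted p = 0.395). Hmox1, for heme oxygenase, went from 33.7 and 34.7 to 17.4 and 24.9 RPKM, and the control lay at 30.1 to 35.8 RPKM. In the autophagy list 7 of 22 were lower and 1 higher, with Sqstm1, for the cargo receptor p62, at 170.3 and 183 and then 97.5 and 120.3 RPKM. The serine synthesis gene Psat1, of the integrated stress response, went from 90.9 and 94.5 to 52.2 and 53.2 RPKM (-0.82 ± 0.12, adjusted p = 0.0897). In the control Psat1 was also lower without overlap (78.7 and 92.4, then 74.4 and 76.0 RPKM). With p38-MAPKi 4 of 17 genes of the integrated stress response list were nominally lower.

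Cholesterol synthesis genes were higher at 10 h in the control. There 18 of 24 genes were nominally higher (median 0.45), and with p38-MAPKi 0 were higher and 1 lower (median 0.00). The difference was nominal for 6, all more negative with p38-MAPKi, and for 2 with the length trend removed, beside 7.95% and 5.57% of all genes.

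Among the more abundant genes whose libraries did not overlap, the 10 with the smallest p in each direction were taken. The higher ones included BC053393, Txnip, Klk7, Dynlt3, Slc24a5, Dppa1, Tie1, Glipr2 and B3gnt5, and none of the 20 passed an adjusted p of 0.05. BC053393 measured 69.1 and 69.5 RPKM at 4 h and 179 and 183 RPKM at 10 h (1.39 ± 0.12, adjusted p = 0.0679), and it rose in the control from 73.2 and 83.4 to 119 and 116 RPKM (0.58, adjusted p = 0.0451). Txnip, an inhibitor of thioredoxin, went from 15.3 and 16.3 to 33.7 and 33.5 RPKM (1.09 ± 0.13). It rose in the control from 5.77 and 12.5 to 20.7 and 16.1 RPKM, and the difference between the arms was -0.01 ± 0.40. The lower ones were Prelid2, Cited1, Pdxk, Clic3, Gpd1l, Tex19.2, Psat1, Isyna1, Pemt and Alppl2. Pemt, which makes phosphatidylcholine, went from 139.5 and 197 to 70.8 and 76.5 RPKM (-1.17 ± 0.18), Isyna1, which makes inositol phosphate, from 696 and 775 to 386 and 398 RPKM (-0.91 ± 0.14), and Pdxk, which makes pyridoxal phosphate, from 28.1 and 29.4 to 15.1 and 14.99 RPKM (-0.93 ± 0.13).

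**Figure D5:**
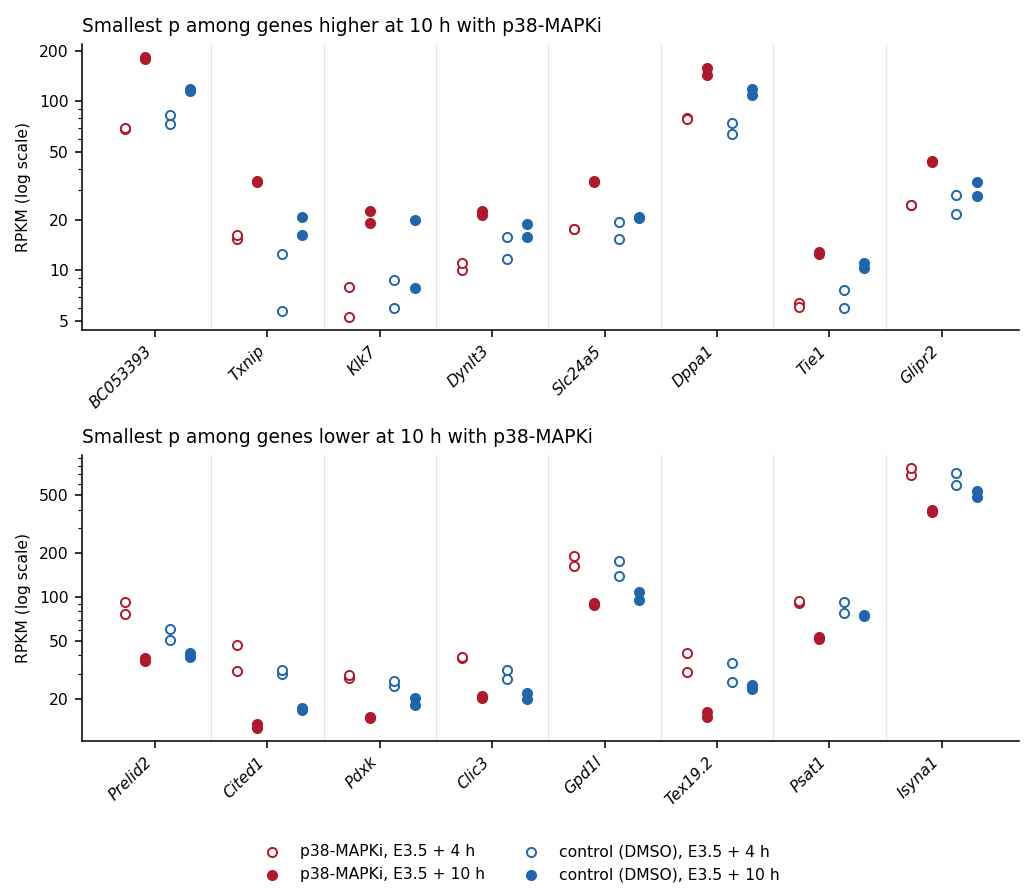
RPKM on a log axis of the 8 genes with the smallest p in each direction, 1 point per library, at both times of p38-MAPKi and control. BC053393 reached 179 and 183 RPKM at 10 h of p38-MAPKi against 119 and 116 RPKM in the control. Prelid2 went from 77.3 and 93.1 to 38.4 and 36.3 RPKM with p38-MAPKi, and from 51.3 and 61.0 to 41.6 and 38.9 RPKM in the control.

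In the test of the difference between the arms the smallest p belonged to Xist, the RNA that silences an X chromosome of females. Xist was at 20.5 and 17.6 RPKM at 4 h and 54.1 and 37.8 RPKM at 10 h of p38-MAPKi, and at 40.8 and 38.5 and then 32.3 and 35.1 RPKM in the control (1.48 ± 0.23, adjusted p = 0.395). The Y-linked gene Ddx3y was at 10.4 and 10.5 RPKM and then at 8.29 and 8.88 RPKM in the inhibited pools, and the part of the pools' sex ratio in the result was not tested. Malat1, Slc22a17, BC053393 and Laptm5 were the other 4 on the more positive side, and Hand1, Cd68, Srxn1, Lin37 and Gm6020 were the 5 on the more negative. Cd68, a lysosomal membrane protein gene of macrophages, rose in the control from 2.65 and 2.83 to 6.23 and 6.29 RPKM (1.19, adjusted p = 0.0104), and with p38-MAPKi it was at 4.48 and 7.32 RPKM and then at 3.87 and 3.84 RPKM. Gm6020 rested on 8, 6, 1 and 1 reads.

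Of the 47 genes that rose in the control, 25 were tested with p38-MAPKi and 24 of these had a log2 fold change above 0 there, 18 of them nominally. The remaining 22 stayed under the 1 RPKM filter with p38-MAPKi. In the control both 4 h values of each of them lay under 1 RPKM. They passed the filter there only through their 10 h libraries, so only a rise could be found. These include genes of the 2-cell-like state, whose near-identical copies share reads, so their values are uncertain. Zscan4d, a marker of that state, had no read in the 4 h control libraries and was at 4.97 and 2.15 RPKM at 10 h, while none of the 4 p38-MAPKi libraries had a read. Of the 7 h libraries, replicate 2 of p38-MAPKi held 59 reads of Zscan4d and the other 3 held 0. Tcstv3, expressed in the same state, reached 16.5 and 5.57 RPKM in the control and 1.75 and 1.78 RPKM with p38-MAPKi, after 0.601 and 0.562 and 0.211 and 0.594 RPKM at 4 h. In both arms Tcstv3 passed the filter only through its 10 h libraries. The 4 genes that fell in the control, Gm26917, AC170597.1, Cited1 and Stmn3, were all nominally lower with p38-MAPKi too.

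The remaining lists are given beside the background of 12.2% higher and 10.0% lower. Higher and lower nominal members numbered 8 and 1 of 30 for mitosis, 6 and 0 of 16 for amino acid transporters, 6 and 1 of 20 for imprinted genes and 4 and 0 of 22 for p53 targets, of which the control had 13 higher. They numbered 6 and 4 of 21 for the BCL2 family, 5 and 7 of 31 for lysosome, 4 and 2 of 20 for glycolysis, and 4 and 2 of 15 for immediate early genes. DNA replication had 1 and 1 of 35, ribosome biogenesis 1 and 7 of 45, aminoacyl-tRNA synthetases 0 and 8 of 28 and heat shock genes 0 and 7 of 23. The imprinted gene Igf2, for a growth factor, went from 4.34 and 2.79 to 7.96 and 9.89 RPKM (1.35 ± 0.25). Of 26 oocyte and cleavage-stage transcripts 7 were tested and 3 were nominally lower.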

How the data were processed

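Whole-blastocyst pools were profiled by mRNA-Seq in 12 libraries, 2 for each of 6 groups (DMSO or p38-MAPKi, at 4, 7 and 10 h). The deposited values are log2 RPKM per gene, which the authors made in SeqMonk on GRCm38, after Trim Galore 0.4.1 and HISAT2 2.0.5 as named in the submitters' processing notes. Strand option and isoform handling are not given in the sources used here, so antisense and overlapping genes cannot be told apart. Genes without reads hold a floor of 0.9 reads, and the steps of the values gave whole reads and the depth of each library.

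Genes that reached 1 RPKM in 2 or more of the libraries of a comparison were tested with limma 3.58.1 (R 4.3.3; lmFit, eBayes with trend) on the deposited log2 values with no added pseudocount. The DMSO libraries and the difference between the arms (8 libraries) were tested likewise, with Benjamini-Hochberg adjustment over all tested genes and a threshold of 0.05. The authors used DESeq2, whose counts were not used here. A ± value is a standard error of limma. Replicates are separate pools, so p-values measure the spread between pools. Each script that tests across genes was tested on simulated data. The length trend was removed per library by loess (span 0.5). Python 3.11.15, numpy 2.4.6, pandas 2.3.3 and matplotlib 3.10.9 were also used.

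Named genes were fixed lineage markers, the 10 smallest p in each direction among non-overlapping genes at or above the median level, and 5 in each direction from the test of the difference. Some of these items are not reported here. The members and the 38 gene lists were chosen with earlier results of these data known. Alternatives were other scalings, filters, pseudocounts, thresholds, voom on the recovered reads, all 12 libraries in 1 fit, a replicate block and leaving out each library. Medians of lists without a library were added after seeing the data.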

Additional observations from a re-analysis of the deposited data

Results flagged for a closer look

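For 6 named genes both 10 h libraries lay on one side of both 4 h libraries with p38-MAPKi and on the other side in the control. The difference of the log2 changes (p38-MAPKi minus control, limma over 8 libraries) is given. It was 1.48 for Xist, 0.98 for Malat1 and 1.71 for Slc22a17, which were higher at 10 h with p38-MAPKi. It was -1.76 for Cd68, -1.14 for Srxn1 and -0.27 for Tfap2c, which were lower. The unadjusted p was 0.132 for Tfap2c and between 6.207e-05 and 0.0006414 for the other 5, and the adjusted p lay between 0.395 and 0.583, so none of the differences passed. Those 5 genes were named because their p was among the smallest in this same test, so their p-values are no separate support. Without overlap, 525 of the 10633 genes tested in both arms were lower with p38-MAPKi and higher in the control, and 78 were the opposite.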

How the results depend on the processing

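With p38-MAPKi the count of 0 genes at an adjusted p of 0.05 became 44 at 0.1, 2 after quantile normalization, 3 with log2(RPKM + 1), 3 with log2(RPKM + 5), 220 with all 12 libraries in 1 fit, 1 with the length trend removed, and 55 to 4749 when 1 library was left out. It was 4749 without replicate 1 of 4 h, 607 without replicate 2 of 4 h, 55 without replicate 1 of 10 h and 74 without replicate 2 of 10 h, where the lone library of a group is assumed to vary like the other group. Voom on recovered reads gave 0 (smallest adjusted p 0.0502, 2605 genes at an unadjusted p under 0.05).

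In the control the 51 genes became 15 at an adjusted p of 0.01, 164 at 0.1, 26 without the trend, 2 with no filter, 276 at 10 RPKM or more, 31 with log2(RPKM + 5), 30 with the length trend removed, 448 with voom and 53 to 1183 without 1 library, the highest without replicate 2 of 4 h. All 12 libraries in 1 limma fit gave 0 (792 at an unadjusted p under 0.05). The difference between the arms gave 5 genes without the trend and 0 to 558 without 1 library, 558 without replicate 1 of p38-MAPKi at 4 h and 2 without replicate 2 of 10 h. The causes were not tested.

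With replicate number as a block, 1818 genes passed with p38-MAPKi and 536 in the control. The labels do not say that a number marks a shared batch, and the correlation of same-numbered deviations was 0.139 and 0.034 over 2 pairs, so the block was not used as a pairing.

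Of 889 values of the 53 named genes under the alternatives, 870 kept their direction. The other 19 turned, and those of Lrp2 and Klf4, with reported log2 fold changes of 0.34 and 0.24, did so without replicate 2 of 4 h. Centring gave Gata4 0.00. Quantile normalization gave Gata4 -0.11, Sox2 0.05 and Tfap2c 0.07. Removing the length trend gave Gata6 -0.02, Lrp2 -0.09, Sox2 0.08, Tdgf1 0.00 and Krt7 -0.06. Leaving out 1 library gave ranges of -0.04 to 0.37 for Gata6, -0.05 to 0.26 for Gata4, -0.07 to 0.75 for Lrp2, -0.06 to 0.54 for Klf4, -0.04 to 0.33 for Eomes, -0.21 to 0.03 for Esrrb, -0.13 to 0.08 for Tdgf1 and -0.06 to 0.06 for Sox2. With 2 pools per group, small changes were not detectable.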
